A study of Homo sapiens with 4 samples.

Results

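Antisense RNAs are transcripts read from the DNA strand opposite to a protein-coding gene. The genes listed as antisense in the deposited table were taken for H1299 cells, and each was paired with every protein-coding gene that its coordinates overlap on the other strand. This gave 5583 antisense genes, with 10322 transcripts, of 58735 genes in all. Of these, 4908 overlap at least 1 of 4496 protein-coding genes in 5687 pairs, and 675 overlap none. RNA was sequenced from H1299, a human lung carcinoma cell line, after exposure to 0.5 mM methylparaben for 48 h (2 libraries) or with ethanol as the control (2 libraries). No length of exposure is given for ethanol. Methylparaben is the methyl ester of 4-hydroxybenzoic acid and is used as a preservative in cosmetics and food. RNA was selected on poly(A) beads, so antisense RNAs without a poly(A) tail are largely outside these data. All libraries come from 1 cell line, and the labels do not say whether duplicates were separate cultures, so the p-values cover no more than the spread seen among these libraries, which may be technical.

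Antisense RNAs can lie head to head with a coding gene and share its start region, tail to tail with overlapping 3′ ends, or wholly within the coding gene, often in an intron. Some act where they are made, by transcription across the partner's promoter or by guiding chromatin complexes to it, and others bind proteins or microRNAs elsewhere in the cell. Many head-to-head transcripts arise because a promoter fires in both directions. Reads here were counted without regard to strand, and reads from a gene and its antisense partner cannot be told apart where they overlap. Reads were assigned solely on bases covered by 1 annotated transcript: 0 of 70749 transcripts that lack such a base had one. Also, 0 of 3138 transcripts that gain such a base when strands are kept apart had a read, and 635 of these were antisense transcripts. The bases on which a gene can collect reads are called its countable bases below. An antisense gene that lies within an intron keeps countable bases there, and unspliced RNA of the coding gene covers the same bases.

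Start regions of 3 head-to-head pairs are shown because these pairs behaved in 3 ways: only the antisense RNA was called (THAP9), both genes fell (TMPO), or the genes moved in opposite directions (HMGN3). Each is the RefSeq window on GRCh38.p14 from 250 bases before to 50 bases after the start, on the strand of the gene, 5′ to 3′. Capitals mark CCAAT (bound by NF-Y), GGGCGG (the GC box), TGACGTCA (cAMP response element) and TGATGNAA (C/EBP-ATF element), searched on both strands, so that a match on the other strand is shown as its reverse complement. The windows lie at chr4:82900867-82901166 (minus strand) and chr4:82900485-82900784 (plus strand) for THAP9-AS1 and THAP9, at chr12:98516177-98516476 (minus) and chr12:98515323-98515622 (plus) for TMPO-AS1 and TMPO, and at chr6:79233424-79233723 (plus) and chr6:79234633-79234932 (minus) for HMGN3-AS1 and HMGN3. The start used by RefSeq for TMPO-AS1 is 196 bases from the deposited one.
THAP9-AS1: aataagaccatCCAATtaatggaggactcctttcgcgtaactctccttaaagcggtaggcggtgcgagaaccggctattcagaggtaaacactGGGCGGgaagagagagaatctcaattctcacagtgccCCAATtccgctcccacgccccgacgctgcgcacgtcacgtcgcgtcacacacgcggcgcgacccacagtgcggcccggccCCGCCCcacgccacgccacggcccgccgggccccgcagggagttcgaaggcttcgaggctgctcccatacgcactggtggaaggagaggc
THAP9: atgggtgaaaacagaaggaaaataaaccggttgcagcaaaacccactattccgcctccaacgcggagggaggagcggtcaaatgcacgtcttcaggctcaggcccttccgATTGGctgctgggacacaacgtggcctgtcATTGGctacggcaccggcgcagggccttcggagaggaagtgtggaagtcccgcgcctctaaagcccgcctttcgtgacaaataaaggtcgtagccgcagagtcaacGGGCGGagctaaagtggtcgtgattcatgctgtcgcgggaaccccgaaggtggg
TMPO-AS1: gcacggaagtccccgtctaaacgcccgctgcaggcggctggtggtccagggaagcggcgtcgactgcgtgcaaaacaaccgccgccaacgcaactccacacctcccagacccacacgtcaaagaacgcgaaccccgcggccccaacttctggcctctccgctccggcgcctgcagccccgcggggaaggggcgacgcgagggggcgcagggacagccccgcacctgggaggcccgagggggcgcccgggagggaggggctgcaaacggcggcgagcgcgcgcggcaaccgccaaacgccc
TMPO: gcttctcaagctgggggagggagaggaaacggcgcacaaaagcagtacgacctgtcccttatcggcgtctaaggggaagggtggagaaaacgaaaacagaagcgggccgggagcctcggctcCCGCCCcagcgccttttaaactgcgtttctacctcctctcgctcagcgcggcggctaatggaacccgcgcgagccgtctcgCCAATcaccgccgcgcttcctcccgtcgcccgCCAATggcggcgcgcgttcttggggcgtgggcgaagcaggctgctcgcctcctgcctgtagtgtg
HMGN3-AS1: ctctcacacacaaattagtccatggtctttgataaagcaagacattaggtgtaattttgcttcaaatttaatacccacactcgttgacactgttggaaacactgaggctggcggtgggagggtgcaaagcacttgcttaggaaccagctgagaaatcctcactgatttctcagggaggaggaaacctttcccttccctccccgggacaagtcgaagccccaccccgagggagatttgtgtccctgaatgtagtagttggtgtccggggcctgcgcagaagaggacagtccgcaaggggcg
HMGN3: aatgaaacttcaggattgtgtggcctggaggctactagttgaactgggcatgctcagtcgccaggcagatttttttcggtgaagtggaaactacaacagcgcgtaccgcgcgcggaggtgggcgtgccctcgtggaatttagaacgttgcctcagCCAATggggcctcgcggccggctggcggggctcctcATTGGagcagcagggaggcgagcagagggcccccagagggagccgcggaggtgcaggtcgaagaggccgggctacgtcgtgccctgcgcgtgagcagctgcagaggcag
Each of the 3 coding windows holds 2 CCAAT boxes, and the windows of TMPO-AS1 and HMGN3-AS1 hold none of the 4 motifs. Among the 64 head-to-head pairs with both genes tested, a RefSeq window was matched by symbol for 30 antisense and 52 coding genes. A gene was scored as holding a motif if any of its windows did, whereas the share over all 35116 windows is per window. A gene with several windows has more places for a match, so these shares are not like for like. CCAAT was present in 36.7% of the antisense and 38.5% of the coding genes, and in 34.6% of all windows. GGGCGG was present in 56.7% and 69.2% of these genes, and in 45.0% of all windows. TGACGTCA was found in 1 antisense and 2 coding genes (1.85% of all windows), and TGATGNAA in 1 antisense and 0 coding genes (3.62% of all windows). A match is a description of letters and does not show that a factor binds there.

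Ethanol 1 and 2 held 2368658 and 2182058 counts, and methylparaben 1 and 2 held 3760982 and 2068486. Antisense genes took 0.755% and 0.787% of counts in ethanol 1 and 2, and 0.640% and 0.650% in methylparaben 1 and 2. A count of 0 allows a level of up to 0.798 to 1.45 CPM (counts scaled to a common library size), for counting error only (3 counts). Of the 5583 antisense genes, 344 have no countable base, 3028 have countable bases but 0 counts in all libraries, and 2211 have at least 1 count. A filter on low counts left 334 for testing and 1877 with too few counts. A gene can pass this filter through the group in which it is high, so counts over tested genes below are descriptions of those genes and not of all members. Log2 CPM over 8055 tested genes had a correlation of 0.963 within ethanol, 0.957 within methylparaben and 0.816 to 0.853 for libraries of different groups. The limit for 0 counts and the markers that follow use the total counts unscaled. Of 5 markers of the line, the keratins KRT8 (6.42 to 10.6 CPM) and KRT18 (2.29 to 7.18 CPM) had counts in every library without a split by group, and the epithelial markers KRT19 and EPCAM were at 0 in all. The fifth, the mesenchymal marker VIM, is a coding partner described below, and its fall carries that of the summed list (104 and 80.7 CPM in ethanol, 50.3 and 43.5 CPM in methylparaben). None of 4 lung epithelial, 4 blood or 3 hepatocyte markers had a count, the endothelial marker PECAM1 reached at most 2 counts, and the 2 neuronal markers summed to 3.67 to 9.67 CPM without a split by group. A marker at 0 is not shown to be absent, because reads were assigned on countable bases only. NKX2-1 had 272 of these and SCGB1A1 257, and the cell cycle genes MCM2 (1245) and RRM1 (881) were also at 0 in all libraries.

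Antisense genes fell more often than they rose. Of 334 tested, 130 passed a false discovery rate of 0.05 (38.9%), 47 higher and 83 lower in methylparaben, and 124 of these changed at least 2-fold. In RNA from bulk cultures, fewer cells that make an RNA and less of it per cell cannot be told apart. Among all 8055 genes tested, 36.9% passed, 18.5% higher and 18.4% lower. The share higher was 14.1% and the share lower 24.9% among the antisense genes, and their median log2 fold change was -0.31 against 0.03 for all genes. Without the filter, over all 2211 antisense genes with a count, the median was -0.07, and 61 were called higher and 108 lower. Over all 22450 genes with a count the median was then 0.03, and 3196 were called in either direction. Long intergenic noncoding RNA genes showed 12.1% higher and 28.6% lower with a median of -0.45, so the lean towards decreases was not measured in antisense genes alone. Among the coding partners the counts were nearer to even: of 1411 tested, 263 rose and 287 fell (39.0% in all, median 0.02), and of the tested coding genes that overlap no antisense gene 39% changed, 19.9% higher and 19.1% lower. The antisense genes were also lower in level, with a median of 7.98 CPM against 24.8 CPM for the coding partners. At a mean of at least 5 CPM, 39 of 255 antisense genes rose and 61 fell. Scaling by library size alone shifted the median of all genes by -0.11 on the log2 scale. Without ethanol library 1 the antisense calls dropped to 61, with 27 higher and 34 lower; without ethanol library 2 the lower calls dropped to 50. DESeq2 called 86, of which 51 were lower.

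The counts of genes higher and lower differed with the way an antisense gene lies on its partner, as the plot of calls by kind of overlap shows. Head to head means here that each gene starts within the other, with neither wholly inside the other. The starts of such pairs can still be far apart, as for AC079630.1 and LRRK2 (28171 bases) or RGS5 and NUF2 (55318 bases). Of 94 tested antisense genes whose only overlap is head to head, 34 fell and 7 rose (median log2 fold change -0.67). Of 108 that lie only within a coding gene (embedded genes), 26 rose and 15 fell (median 0.39). Of 46 with overlap only at the 3′ end, 6 rose and 6 fell (median -0.31). A further 41 have more than 1 kind of overlap (7 rose, 11 fell), and 4 enclose a coding gene (0 rose, 3 fell). The 41 without a coding partner stood on the side of the head-to-head genes, with 14 lower, 1 higher and a median of -1.05. Of these 41, 28 start within 1000 bases of the start of a coding gene on the other strand and point away from it, as head-to-head genes do without touching, and 10 of the 28 fell and 1 rose. Of the other 13, 4 fell, so the decreases were not limited to the genes near a coding start. Distance to the partner's start gave a similar split among the genes with a partner, but it is tied to the kind of overlap. In pairs with both genes tested, its median was 747.5 bases for head-to-head and 31148 bases for embedded pairs. The split by distance is thus no separate evidence. The 88 that start within 1000 bases of a coding start had 10 higher and 31 lower (median -0.65), and the 205 that start farther away had 36 higher and 38 lower (median -0.04). These shares were not tested against each other. Without ethanol library 1 the head-to-head genes had 14 lower and 4 higher, and the decreases of embedded genes numbered 6, as they also did without ethanol library 2. DESeq2 called 19 head-to-head genes and 8 embedded genes lower. Without the filter on low counts 32 embedded genes were called higher and 33 lower, so their lean towards increases depended on the filter, while the head-to-head genes had 9 higher and 35 lower.

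**Figure D1:**
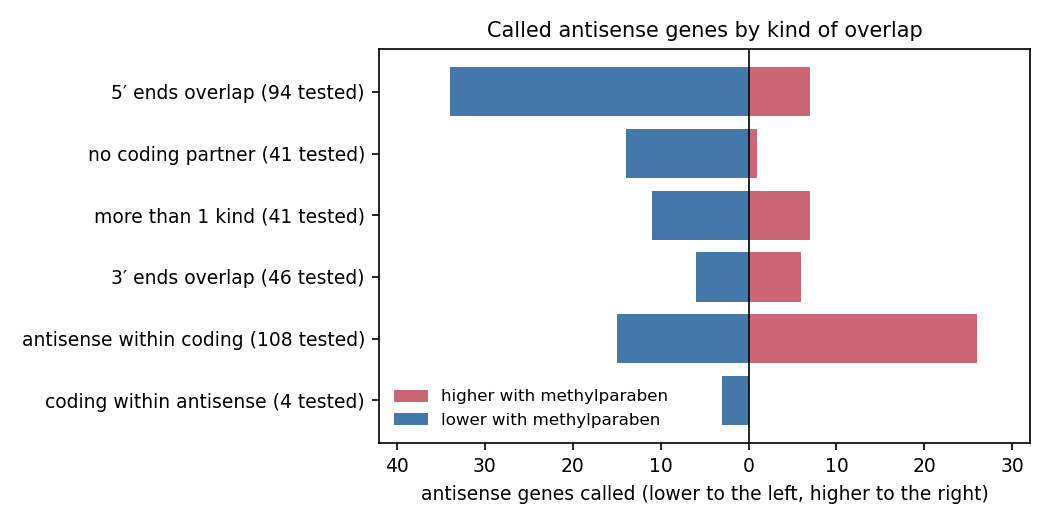
Number of tested antisense genes called higher or lower in methylparaben (2 libraries) than in ethanol (2 libraries), by the kind of overlap with protein-coding genes. Head-to-head genes (5′ ends overlap) have 34 lower and 7 higher, and genes within a coding gene have 26 higher and 15 lower.

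Among head-to-head genes with a mean of at least 5 CPM the largest decrease was that of SGMS1-AS1, at the start of SGMS1, which encodes a sphingomyelin synthase of the Golgi. SGMS1-AS1 (chr10:50624951-50641451, plus strand) stood at 50.6 and 50.2 CPM in ethanol and at 1.09 and 2.62 CPM in methylparaben. The log2 fold change was -4.89 ± 0.44 (SE; edgeR adjusted p = 0.000102), and the groups were far apart. SGMS1 itself was at 6.38 and 7.36 CPM in ethanol and 11.2 and 5.23 CPM in methylparaben, with overlapping groups (0.31 ± 0.52, adjusted p = 0.681). The change of SGMS1-AS1 was 4.49 log2 units below that of SGMS1 (limma on the within-library difference, adjusted p = 0.000177). All 10396 countable bases of SGMS1-AS1 lie outside SGMS1.

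AL121603.2 at the start of BAZ1A, a subunit of chromatin remodelling complexes, went from 36 and 43 counts in ethanol to 0 and 4 counts in methylparaben (-4.38 ± 0.86, adjusted p = 0.00400). DEPDC1-AS1 at the start of DEPDC1 had 35 and 17 counts in ethanol and 3 and 0 in methylparaben, a count ratio of 0.045 (exact 95% interval 0.00900 to 0.139, adjusted p = 0.00391), while DEPDC1 changed by -0.40 (adjusted p = 0.376). The call on DEPDC1-AS1 was lost without ethanol library 1 (adjusted p = 0.0999). A further head-to-head gene, STARD4-AS1, is named after its values were seen, because its partner STARD4, a carrier of cholesterol between membranes, is well measured. STARD4-AS1 was at 25.5 and 29 CPM in ethanol and 5.71 and 3.66 CPM in methylparaben (-2.47 ± 0.40, adjusted p = 0.00162). STARD4 was at 172 and 198 CPM in ethanol and 259 and 231 CPM in methylparaben, which did not pass the test (0.40 ± 0.17, adjusted p = 0.0944). The difference within this pair passed (-2.78 ± 0.46, adjusted p = 0.000656).

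Against the general direction of head-to-head genes, THAP9-AS1 and MAP4K3-DT rose. THAP9-AS1 (chr4:82893009-82900960, minus strand) starts 276 bases from THAP9, a gene derived from a DNA transposase. It had 26.4 and 16.0 CPM in ethanol and 153 and 151 CPM in methylparaben, a 7.17-fold higher mean (log2 fold change 2.84 ± 0.27, adjusted p = 0.000122). THAP9 had 4.25 and 11.3 CPM in ethanol and 13.1 and 7.85 CPM in methylparaben, with overlapping groups (0.46 ± 0.55, adjusted p = 0.539). The THAP9-AS1 change exceeded that of THAP9 by 2.35 ± 0.63 (adjusted p = 0.0102), but this difference was lost without ethanol library 2 (adjusted p = 0.139). MAP4K3-DT, at the start of the kinase gene MAP4K3, had 3.40 and 7.36 CPM in ethanol and 40.0 and 24.6 CPM in methylparaben (2.60 ± 0.46, adjusted p = 0.00234).

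Of the 184 pairs in which both genes were tested, 34 had both genes called. Over all 808 opposite-strand pairs of any gene type, which include these 184, the share was 14.6% (118 pairs). Over the 624 pairs of other gene types it was 13.5% (84 pairs). In 29 of the 34 the genes moved in the same direction, 16 higher and 13 lower, and in 5 in opposite directions. Among the 84 such pairs of other gene types 58.3% moved in the same direction. A further 42 pairs had only the antisense gene called, 41 only the coding gene and 67 neither. Across the 184 pairs, which share libraries, scaling and in part genes, the fold changes of antisense and coding gene correlated at r = 0.30 (Spearman rho = 0.33). The kind of overlap separated the pairs here too. Head-to-head pairs (64) had r = -0.01 (rho = 0.09), with 10 pairs called in both genes, 5 in the same direction (all lower) and 5 in opposite directions. In the 71 pairs with the antisense gene inside the coding gene r was 0.49 (rho = 0.49), and all 15 pairs called in both genes moved in the same direction. In the 41 pairs that overlap at the 3′ end r was 0.46 (rho = 0.43), and all 7 pairs called in both genes moved in the same direction. The 8 pairs in which the antisense gene encloses the coding gene had 2 such pairs, both lower.

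**Figure D2:**
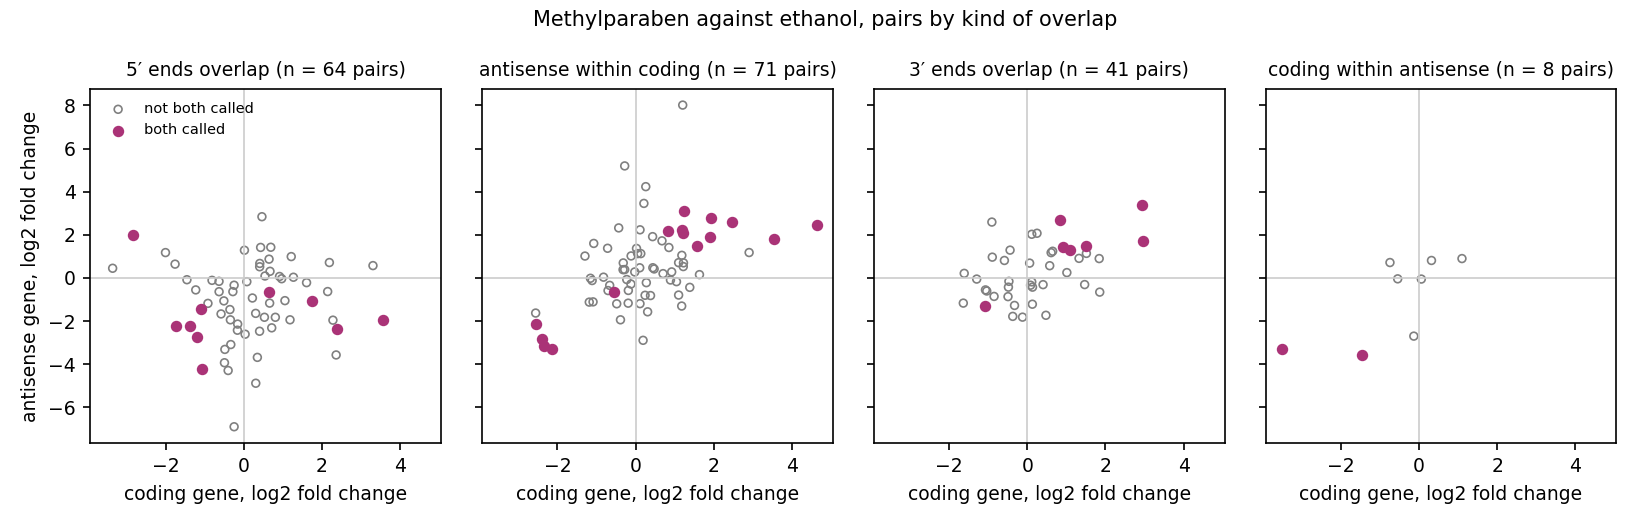
Log2 fold change (methylparaben over ethanol) of the antisense gene (vertical axis) against that of the coding gene (horizontal axis) for the 184 pairs with both genes tested, 1 panel for each kind of overlap, with filled points where both genes were called. The correlation is r = -0.01 for the 64 head-to-head pairs (5′ ends overlap) and r = 0.49 for the 71 antisense genes within coding genes.

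The place of the countable bases follows largely from the kind of overlap. An embedded antisense gene has all of them inside its partner, so the 73 pairs below include all 71 embedded pairs. These counts thus describe mostly the same pairs again and are no separate evidence. Where all countable bases of the antisense gene lie inside the coding gene (73 pairs), all 16 pairs with both genes called moved in the same direction. Where all lie outside (28 pairs), 4 of 7 did, and with bases on both sides (83 pairs) 9 of 11 did. In 18 of the 29 same-direction pairs most reads of the coding gene fell on transcripts that are not annotated as protein-coding, such as retained introns, against 1 of the 5 opposite pairs. This share was not counted among the pairs not called in both genes, which held coding genes of either kind. Protein-coding transcripts took 0.154% of TMEM161B and 2.18% of OCIAD1 reads there, but 100% of STARD4 and 99.2% of TMEM167B reads. When coding genes were counted on their protein-coding transcripts only, 9 of the 29 same-direction and 3 of the 5 opposite pairs were still called in both genes, and the coding gene of 16 of the 34 pairs had too few counts to be tested. The part of intronic reads in the shared direction was not tested. Without ethanol library 1 the pairs called in both genes dropped to 11, and 9 of the 34 were among them. Without ethanol library 2 they dropped to 19, of which 16 were among the 34.

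Each of the 5 opposite pairs overlaps head to head, and the plot of these pairs by library shows the levels. In 4 the antisense RNA fell while the coding gene rose. ICA1 encodes an autoantigen of secretory cells with a membrane-binding BAR domain. The antisense gene at its start, AC007128.1 (chr7:8262264-8344516, plus strand), had 28.5 and 29.9 CPM in ethanol and 5.99 and 9.42 CPM in methylparaben (-1.96 ± 0.38, adjusted p = 0.00368). ICA1 had 6.80 and 7.36 CPM in ethanol and 86.5 and 80.6 CPM in methylparaben, an 11.8-fold higher mean (3.55 ± 0.29, adjusted p = 7.37e-05). None of the groups overlapped, and all 1071 countable bases of AC007128.1 lie outside ICA1. Of the ICA1 reads, 96.0% fell on transcripts annotated as retained introns and 3.17% on protein-coding transcripts, so its increase was hardly read on the coding form. A second antisense gene, AC006042.1, lies inside ICA1 with all its 504 countable bases. It had 7.65 and 8.66 CPM in ethanol and 29.9 and 26.2 CPM in methylparaben, and thus rose with ICA1 (1.78 ± 0.36, adjusted p = 0.00428).

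FGD5-AS1, a cytoplasmic long noncoding RNA described as a microRNA sponge, was the antisense gene with the highest CPM among those named. It had 537 CPM in both ethanol libraries and 363 and 318 CPM in methylparaben (-0.66 ± 0.16, adjusted p = 0.0115). Its head-to-head partner NR2C2, the orphan nuclear receptor TR4, had 255 and 211 CPM in ethanol and 339 and 395 CPM in methylparaben (0.65 ± 0.18, adjusted p = 0.0175). FGD5-AS1 was thus 1.58-fold lower and NR2C2 1.57-fold higher in mean CPM, and the groups did not overlap, but both calls were lost without ethanol library 1 (adjusted p = 0.0731 and 0.0612) and without ethanol library 2 (0.0787 and 0.171). The difference within the pair was -1.31 ± 0.25 (adjusted p = 0.00162; 0.05002 without ethanol library 2, where the call was lost), and 93.4% of NR2C2 reads were on protein-coding transcripts.

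HMGN3 encodes a nucleosome-binding protein of the high mobility group, and HMGN3-AS1 overlaps its start by 1021 bases. HMGN3-AS1 had 29.3 and 33.8 CPM in ethanol and 17.7 and 11.5 CPM in methylparaben (-1.08 ± 0.34, adjusted p = 0.0313). HMGN3 had 10.2 and 8.22 CPM in ethanol and 28.0 and 34.5 CPM in methylparaben (1.75 ± 0.35, adjusted p = 0.00443), read on only 93 countable bases. The groups did not overlap for either gene. The call on HMGN3-AS1 was lost without ethanol library 1 (adjusted p = 0.0713), without ethanol library 2 (0.126) and without methylparaben library 2 (0.0949).

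DDX11 encodes a DNA helicase that acts in sister chromatid cohesion, and DDX11-AS1 overlaps it by 3 bases. DDX11-AS1 had 16 and 11 counts in ethanol and 4 and 2 in methylparaben (-2.38 ± 0.68, adjusted p = 0.0216), and DDX11 had 3 and 5 counts in ethanol and 27 and 22 in methylparaben (2.39 ± 0.63, adjusted p = 0.0147). These low counts did not hold the calls: the adjusted p of DDX11-AS1 was 0.141 to 0.326 when any 1 library was left out, and that of DDX11 was 0.112 without ethanol library 1 and 0.109 without methylparaben library 2. In the pair of AL451123.1 and MOB3B, which encodes a kinase activator of the MOB family, the order was the reverse. AL451123.1 had 7 and 9 counts in ethanol and 41 and 32 in methylparaben (1.98 ± 0.51, adjusted p = 0.0139), and MOB3B had 19 and 17 counts in ethanol and 5 and 1 in methylparaben (-2.83 ± 0.67, adjusted p = 0.00958). Without ethanol library 1 the adjusted p was 0.0811 for AL451123.1 and 0.140 for MOB3B, and without methylparaben library 2 it was 0.0570 and 0.0524. MOB3B also lost its call without ethanol library 2 (adjusted p = 0.0936).

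**Figure D3:**
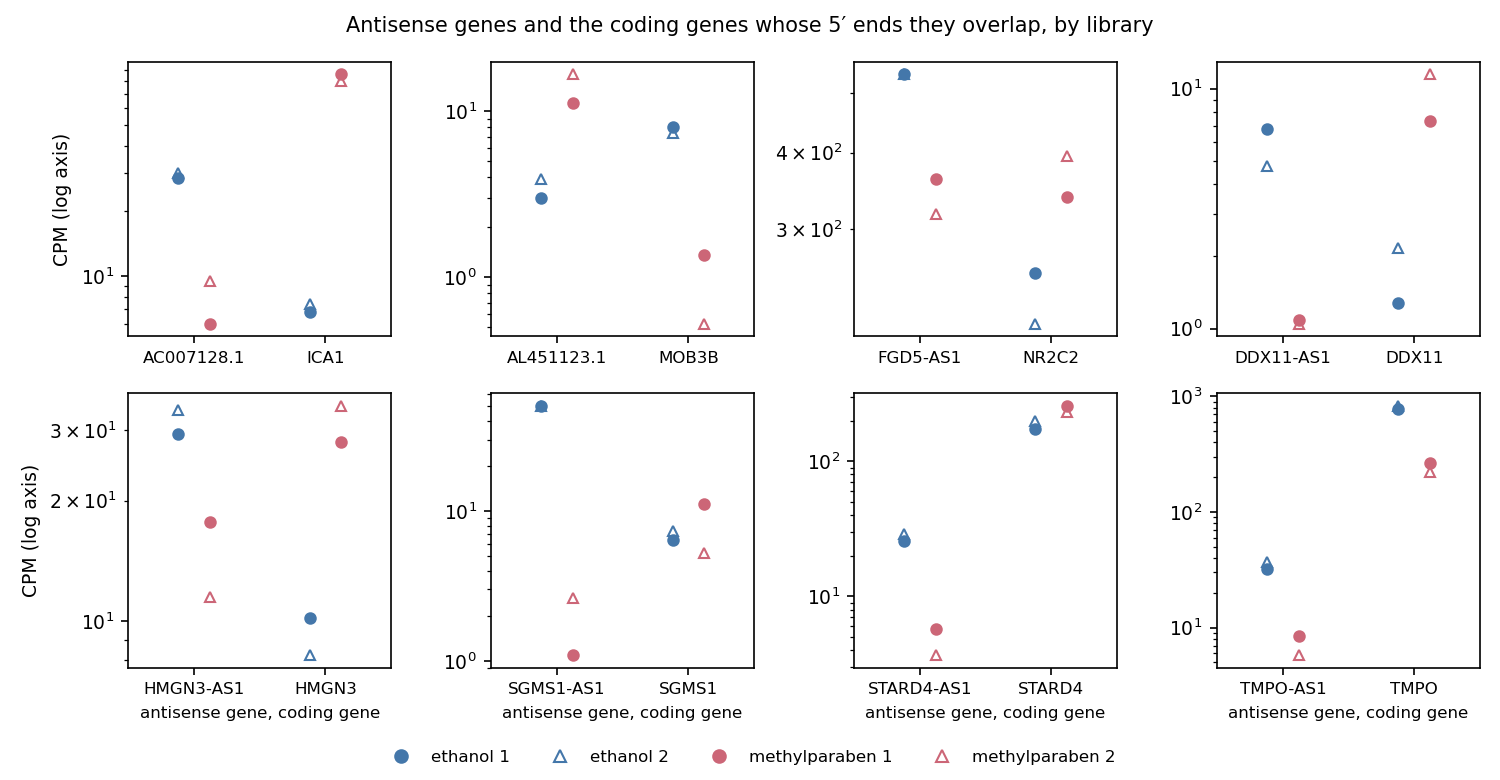
Level of both genes (CPM, log axis) in each of the 2 ethanol and 2 methylparaben libraries for the 5 pairs called in opposite directions and for SGMS1-AS1, STARD4-AS1 and TMPO-AS1 with their head-to-head partners. Circles are replicate 1 and triangles replicate 2, and the axes differ between panels. In the 5 opposite pairs the libraries of a gene do not overlap between groups, which is no added evidence because the pairs were chosen by their calls. ICA1 goes from 6.80 and 7.36 to 86.5 and 80.6 CPM.

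Within pairs, the fold changes of antisense and coding gene differed in 62 of 184 pairs (limma, false discovery rate 0.05), with the antisense gene below its partner in 41 and above it in 21. Among opposite-strand pairs of any type 33.9% differed. Of the 62 pairs 36 were head to head, 30 with the antisense gene below, and 18 had the antisense gene within the coding gene, 11 with it above. The 3′ pairs had 6, with 3 in each direction. With the replicate number as a block 37 pairs differed, and leaving out 1 library left 34 to 49.

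Several pairs fell together. TMPO encodes lamina-associated polypeptide 2, a protein of the nuclear envelope that is made more in dividing cells. TMPO-AS1 (chr12:98512973-98516422, minus strand) had 32.3 and 36.8 CPM in ethanol and 8.43 and 5.76 CPM in methylparaben (-2.24 ± 0.36, adjusted p = 0.00150). TMPO had 770 and 833 CPM in ethanol and 263 and 221 CPM in methylparaben (-1.72 ± 0.17, adjusted p = 0.000152). The groups did not overlap for either gene, the difference between both changes did not pass (-0.46 ± 0.41, adjusted p = 0.425), and 99.7% of TMPO reads were on protein-coding transcripts. Of the 2448 countable bases of TMPO-AS1, 2407 lie outside TMPO.

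CDKN2B-AS1, also known as ANRIL, is described as a guide of Polycomb complexes to the locus of the cell cycle inhibitors CDKN2A and CDKN2B. CDKN2B-AS1 (chr9:21994778-22121097, plus strand) had 14.9 and 16.4 CPM in ethanol and 1.09 and 1.57 CPM in methylparaben, 11.8-fold lower in the mean (-3.57 ± 0.56, adjusted p = 0.00132). CDKN2B, which lies wholly within it on the other strand and encodes the CDK4/6 inhibitor p15, had 186 and 229 CPM in ethanol and 90.1 and 59.1 CPM in methylparaben (-1.46 ± 0.23, adjusted p = 0.00150). Both genes were thus lower in both methylparaben libraries, and none of the 3827 countable bases of CDKN2B-AS1 lie in CDKN2B. The head-to-head partner CDKN2A, which encodes p16 and ARF, did not pass the test, with 0 and 2.16 CPM in ethanol and 5.71 and 5.76 CPM in methylparaben (2.36 ± 0.90, adjusted p = 0.0634). Only 2.70% of the CDKN2A reads were on protein-coding transcripts. Without ethanol library 2 CDKN2A passed (adjusted p = 0.0286).

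VIM-AS1, head to head with the gene of the intermediate filament vimentin, had 20.8 and 29.9 CPM in ethanol and 2.99 and 4.71 CPM in methylparaben (-2.76 ± 0.45, adjusted p = 0.00162). VIM had 88.0 and 68.0 CPM in ethanol and 35.6 and 32.4 CPM in methylparaben (-1.19 ± 0.25, adjusted p = 0.00565), though its call was lost without ethanol library 1 (adjusted p = 0.0518) and 0 of its reads were on transcripts annotated as protein-coding. AC017100.1, at the start of B4GALT6, a galactosyltransferase that makes lactosylceramide, had 34.9 and 19.5 CPM in ethanol and 1.90 and 0.523 CPM in methylparaben (-4.25 ± 0.59, adjusted p = 0.000669). B4GALT6 had 123 and 146 CPM in ethanol and 74.0 and 54.4 CPM in methylparaben, less of a decrease than that of its antisense gene (difference -2.77 ± 0.60, adjusted p = 0.0031; 0.0681 without ethanol library 1). Of the B4GALT6 reads 100% fell on transcripts annotated as retained introns and 0 on protein-coding ones. ERAP2, a peptidase that trims antigenic peptides in the endoplasmic reticulum, had 38.3 and 26.8 CPM in ethanol and 1.90 and 4.19 CPM in methylparaben (-3.52 ± 0.48, adjusted p = 0.000606). The enclosing AC009126.1 had 22 and 15 counts in ethanol and 1 and 3 in methylparaben (-3.32 ± 0.80, adjusted p = 0.00994), a call lost without ethanol library 1 (adjusted p = 0.178) and without methylparaben library 1 (0.0750). In these 3 pairs the groups of either gene were separate.

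Of the 16 pairs that rose together 10 had the antisense gene inside the coding gene and 6 overlapped at the 3′ end. ZNF571-AS1, which overlaps the zinc finger gene ZNF571 at the 3′ end, had 2 and 2 counts in ethanol and 33 and 19 in methylparaben (3.38 ± 0.66, adjusted p = 0.00385). ZNF571 had 8.93 and 11.7 CPM in ethanol and 77.8 and 81.1 CPM in methylparaben (2.94 ± 0.29, adjusted p = 0.000136), all on protein-coding transcripts. Of the 1651 countable bases of ZNF571-AS1, 1438 lie inside ZNF571. The difference between both changes was -0.22 ± 0.66 (adjusted p = 0.840), and no library of either gene crossed between groups.

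AC009554.2 lies in VPS13C, which encodes a lipid transfer protein. It had 3.40 and 2.60 CPM in ethanol and 30.5 and 20.9 CPM in methylparaben (3.09 ± 0.46, adjusted p = 0.000935). VPS13C rose from 17.0 and 14.7 CPM to 35.4 and 40.3 CPM (1.25 ± 0.30, adjusted p = 0.0108), and 76.9% of its reads were on retained-intron transcripts. The difference between both changes (1.58 ± 0.51, adjusted p = 0.0274) was lost without ethanol library 1 (adjusted p = 0.0569), ethanol library 2 (0.0735) or methylparaben library 1 (0.222). NADK2-AS1 had 2.55 and 3.46 CPM in ethanol and 18.0 and 18.3 CPM in methylparaben (2.57 ± 0.47, adjusted p = 0.00291), and NADK2, the mitochondrial NAD kinase, had 3 and 4 counts in ethanol and 35 and 14 in methylparaben (2.47 ± 0.62, adjusted p = 0.0120). NADK2 lost its call without ethanol library 1 (adjusted p = 0.0997) and without methylparaben library 1 (0.148). AL359922.2 inside MTAP, a gene of methionine salvage, had 5.95 and 9.52 CPM in ethanol and 35.9 and 34.0 CPM in methylparaben (2.17 ± 0.36, adjusted p = 0.00184). MTAP had 59.1 and 61.5 CPM in ethanol and 113 and 102 CPM in methylparaben (0.83 ± 0.21, adjusted p = 0.0124), and lost its call without ethanol library 1 (adjusted p = 0.0954) or 2 (0.0551). The excess of AL359922.2 over MTAP (1.28 ± 0.41, adjusted p = 0.0286) was lost without ethanol library 1 (adjusted p = 0.114), methylparaben library 1 (0.108) or methylparaben library 2 (0.0948).

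AL158163.1 inside BBIP1, which encodes a subunit of the BBSome of primary cilia, had 6.80 and 2.16 CPM in ethanol and 22.9 and 18.8 CPM in methylparaben (2.21 ± 0.52, adjusted p = 0.00912). BBIP1 had 51.5 and 51.9 CPM in ethanol and 117 and 120 CPM in methylparaben (1.20 ± 0.21, adjusted p = 0.00219), and 0 of its reads were on protein-coding transcripts. AC004492.1 inside HBP1, which encodes a transcriptional repressor with an HMG box, had 2.98 and 3.46 CPM in ethanol and 15.5 and 11.5 CPM in methylparaben (2.07 ± 0.50, adjusted p = 0.0104). This call was lost without ethanol library 1 (adjusted p = 0.0619) and without methylparaben library 1 (0.0738). HBP1 had 24.2 and 19.0 CPM in ethanol and 49.2 and 52.3 CPM in methylparaben (1.23 ± 0.28, adjusted p = 0.00816), with 72.3% of reads on retained-intron transcripts. For AL158163.1, AC004492.1, AC009554.2, NADK2-AS1 and AL359922.2 every countable base lies inside the partner.

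Of the 12 largest increases 8 were of antisense genes inside coding genes, as the plot of the 12 largest changes in each direction shows. Of all 334 tested antisense genes, 108 lie only within a coding gene. Some of the 8 passed the filter on low counts through methylparaben, and without that filter 32 embedded genes were called higher and 33 lower. AC004765.1, within WNK1, a kinase that controls chloride transport, had 0 and 0 counts in ethanol and 48 and 23 in methylparaben (adjusted p = 0.000881), at least 18.5-fold higher when ethanol is set at 3 counts over the group. WNK1 changed by 1.21 ± 0.58 (adjusted p = 0.130), and the difference within the pair passed (2.99 ± 0.72, adjusted p = 0.00533) but was lost without methylparaben library 1 (adjusted p = 0.160) or 2 (0.172). Of the WNK1 reads, 27.4% fell on protein-coding transcripts and 69.4% on retained introns. AP001107.4 in the kinesin light chain gene KLC2 had 2 and 1 counts in ethanol and 23 and 35 in methylparaben, a count ratio of 15.1 (exact 95% interval 4.91 to 75.3, adjusted p = 0.00518). AC027307.2 in APC2 had 3 and 2 counts in ethanol and 21 and 47 in methylparaben (3.70 ± 0.87, adjusted p = 0.00913). Both depended on the second methylparaben library, without which the adjusted p was 0.0582 and 0.149. AC018695.4 in EMC8, a subunit of the endoplasmic reticulum membrane protein complex, had 5 and 4 counts in ethanol and 82 and 29 in methylparaben (3.26 ± 0.52, adjusted p = 0.00146). AF131216.1 in MTMR9 had 3 and 1 counts in ethanol and 33 and 21 in methylparaben (3.46 ± 0.70, adjusted p = 0.00444). ATP1B3-AS1 in the gene of a sodium pump subunit had 3 and 3 counts in ethanol and 35 and 16 in methylparaben (2.76 ± 0.62, adjusted p = 0.00742), a call lost without ethanol library 1 (adjusted p = 0.0596) and methylparaben library 1 (0.0769). MCPH1-AS1, at the 3′ end of the microcephaly gene MCPH1, had 2.55 and 5.19 CPM in ethanol and 22.6 and 24.6 CPM in methylparaben (2.59 ± 0.46, adjusted p = 0.00245).

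**Figure D4:**
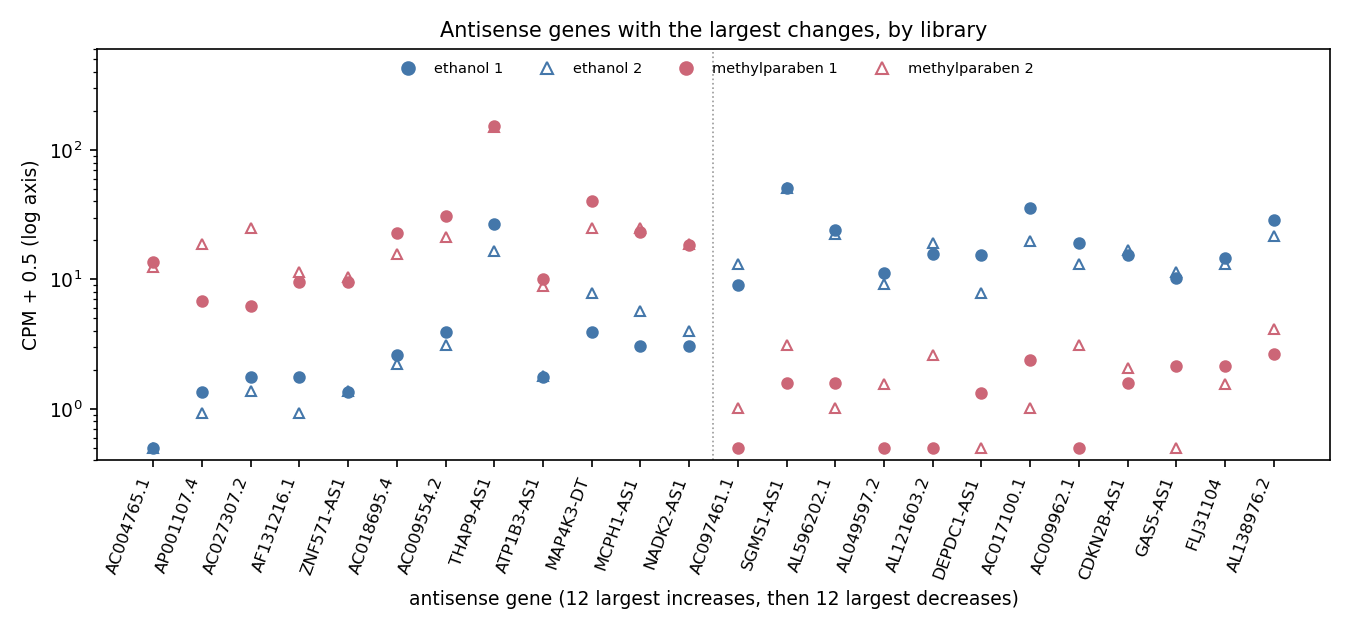
Level (CPM + 0.5, log axis) in each of the 4 libraries of the called antisense genes with the strongest increases (12, left of the dotted line) and decreases (12, right of it) at a mean of at least 5 CPM. Circles are replicate 1 and triangles replicate 2. The groups are separate in every gene shown, which follows largely from choosing called genes with the largest changes. THAP9-AS1 reaches 153 and 151 CPM in methylparaben.

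Of the 12 largest decreases 6 were of genes without a coding partner, which make up 41 of the 334 tested. AC097461.1 had 20 and 29 counts in ethanol and 0 and 1 in methylparaben, a count ratio of 0.0159 (exact 95% interval 0.000395 to 0.0930, adjusted p = 0.00203). AL049597.2, whose start lies 108 bases from that of SH3GLB1, had 25 and 20 counts in ethanol and 0 and 2 in methylparaben (ratio 0.0347, interval 0.00408 to 0.133, adjusted p = 0.00487). AC009962.1, 170 bases from the start of ITPRID2, had 44 and 29 counts in ethanol and 0 and 5 in methylparaben (-3.94 ± 0.90, adjusted p = 0.00814). FLJ31104, 174 bases from the start of IL6ST, the gp130 receptor of the interleukin 6 family, had 33 and 29 counts in ethanol and 6 and 2 in methylparaben (-3.20 ± 0.57, adjusted p = 0.00256). AL138976.2, 1177 bases from the start of EIF5, had 28.1 and 21.2 CPM in ethanol and 2.18 and 3.66 CPM in methylparaben (-3.13 ± 0.47, adjusted p = 0.00106). GAS5-AS1, on the strand opposite to the noncoding growth arrest gene GAS5, had 23 and 25 counts in ethanol and 6 and 0 in methylparaben (-3.28 ± 0.77, adjusted p = 0.00926). No library of these 6 genes crossed between groups, which follows largely from naming called genes with the largest decreases. The calls on AL049597.2, AC009962.1 and GAS5-AS1 were lost without ethanol library 1 (adjusted p = 0.0721, 0.0653 and 0.0618). AL596202.1, which lies inside TIAM2, was the remaining decrease, with 55 and 51 counts in ethanol and 4 and 1 in methylparaben (-4.61 ± 0.55, adjusted p = 0.000340).

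A gene without overlap is added here after its values were seen, because it is well measured: OTUD6B-AS1, which starts 7 bases from OTUD6B and points away from it, had 1017 and 894 counts in ethanol and 644 and 312 in methylparaben (-1.27, adjusted p = 0.000548). OTUD6B, which encodes a deubiquitinase, went the other way, from 2 and 2 counts in ethanol to 35 and 20 in methylparaben (3.46, adjusted p = 0.00329). Other such neighbours fell together. AL356215.1, 838 bases from the start of CD44, fell (-4.38, edgeR adjusted p = 0.00868), and so did CD44 (-1.14, adjusted p = 0.0450). ITPRID2 fell with AC009962.1 (-0.52, adjusted p = 0.0370). Still others were not called, such as EIF5 near AL138976.2 (-0.21, adjusted p = 0.618).

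Of 81 antisense RNAs with described functions 47 are listed as antisense genes here and 15 were tested. Of these 5 were called (33.3%, against 36.9% of all genes): THAP9-AS1 rose, and CDKN2B-AS1, TMPO-AS1, FGD5-AS1 and CASC2 fell (median of the 15 -0.27, against 0.03 for all genes). CASC2, described as a tumour suppressor RNA, had 27.2 and 17.3 CPM in ethanol and 8.71 and 7.33 CPM in methylparaben (-1.45 ± 0.40, adjusted p = 0.0192), a call lost without ethanol library 1 (adjusted p = 0.156). Among those that did not pass were ZFAS1, the antisense RNA of ZNFX1 that hosts small nucleolar RNAs (0.69, adjusted p = 0.112, but 0.0170 without methylparaben library 2), KCNQ1OT1, which silences an imprinted cluster in cis (1.04, adjusted p = 0.110), and ZEB1-AS1 (-0.27, adjusted p = 0.403).

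Antisense RNAs of the HOX clusters had few counts. Of 20 on the list 15 are antisense genes here, and only HOXB-AS1 and HOXB-AS2 were tested. HOXB-AS1 had 11.5 and 13.4 CPM in ethanol and 5.17 and 12.6 CPM in methylparaben (-0.56, edgeR adjusted p = 0.420), and HOXB-AS2 had 4.25 and 0 CPM in ethanol and 5.99 and 7.33 CPM in methylparaben (1.60, adjusted p = 0.192). Neither was called by edgeR, DESeq2, limma-voom or limma on FPKM, and 0 had an unadjusted p under 0.05. HOXB-AS2 was called when ethanol library 1 was left out (adjusted p = 0.0343). HOTAIR, which binds Polycomb complexes, had 2 counts in all. Some of these genes have few countable bases, such as HOXB-AS3 (100) and HOXA11-AS (203), and others have more, such as HOTTIP (2782) and HOXA-AS3 (3384). Each of these had 0 counts in all libraries. Low counts on few countable bases do not show that an RNA is absent.

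Of 56 genes of endoplasmic reticulum stress and the ATF4 response, 13 overlap an antisense gene (23.2%, against 22.5% of all coding genes) and 7 were tested. Of the 7, 5 were called, against 36.9% of all genes: EDEM1, DDIT4, CEBPB and VEGFA rose and VLDLR fell (median of the 7 1.12). EDEM1, which targets misfolded glycoproteins for degradation, had 127 and 123 CPM in ethanol and 337 and 340 CPM in methylparaben (1.44 ± 0.17, adjusted p = 0.000296). DDIT4, an inhibitor of mTORC1, had 6.80 and 18.2 CPM in ethanol and 76.2 and 50.8 CPM in methylparaben (2.35 ± 0.42, adjusted p = 0.00258). Without ethanol library 1 the calls on CEBPB (adjusted p = 0.0594) and VEGFA (0.0665) were lost, and that on VEGFA also without methylparaben library 2 (0.116). Of 65 cell cycle genes 8 are partners (12.3%) and 4 were tested, and CDK6, TMPO, CDK2 and CCNE2 all fell (median -1.91). CDK6, a kinase of the G1 phase, had 971 and 892 CPM in ethanol and 301 and 278 CPM in methylparaben (-1.68 ± 0.16, adjusted p = 0.000135). CDK2, the kinase of the G1/S transition, had 17.9 and 21.2 CPM in ethanol and 5.17 and 3.66 CPM in methylparaben (-2.09 ± 0.44, adjusted p = 0.00536). CCNE2, the cyclin E2 gene, had 24 and 17 counts in ethanol and 4 and 5 in methylparaben (-2.35 ± 0.65, adjusted p = 0.0182). CCNE2 lost its call without ethanol library 1 (adjusted p = 0.220), ethanol library 2 (0.0621) or methylparaben library 1 (0.125). These lists were drawn up with earlier results of these data known, so their direction is no independent evidence.

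Per 1000 countable bases, the most abundant antisense genes over all libraries were AC099850.3 (325 CPM per kb, within PRR11), FGD5-AS1 (174), OCIAD1-AS1 (116, within OCIAD1), AC005288.1 (96.7, with 754 of its 860 countable bases in MED1, which it overlaps at the 3′ end, and head to head with FBXL20) and AC016642.1 (91.7, within RAB3C). The value of AC099850.3 rests on 224 countable bases and that of OCIAD1-AS1 on 47 bases at chr4:48860157-48860203, on the minus strand of GRCh38. For AC099850.3, OCIAD1-AS1 and AC016642.1 every countable base lies inside the partner, so their reads cannot be told from its unspliced RNA. Of the OCIAD1 reads 97.8% fell on retained-intron transcripts. The stretch of OCIAD1-AS1 is shown because all reads assigned to this gene rest on it, in lower case with no part marked.
OCIAD1-AS1: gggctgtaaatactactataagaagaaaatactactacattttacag
AC099850.3 had 97.8 and 80.5 CPM in ethanol and 52.5 and 60.7 CPM in methylparaben (-0.66 ± 0.23, adjusted p = 0.0457), a call that was lost without ethanol library 1 (adjusted p = 0.258), ethanol library 2 (0.0849) or methylparaben library 1 (0.120). OCIAD1-AS1, with 54 counts over all libraries, overlapped between groups (adjusted p = 0.558). AC005288.1 (93.6 and 92.6 CPM in ethanol, 81.6 and 64.9 CPM in methylparaben, adjusted p = 0.247) and AC016642.1 (20.8 and 20.8 CPM in ethanol, 29.7 and 30.4 CPM in methylparaben, adjusted p = 0.191) did not pass the test.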

How the data were processed

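Per the labels, poly(A) RNA of 2 ethanol and 2 methylparaben libraries was made into libraries with an Illumina TruSeq protocol. The authors deposited raw counts per transcript for 206601 transcripts, and a second table with FPKM, log2 of FPKM plus 1 and p-values of their own comparison. The authors' log2 values and p-values were not used. The submitters' processing notes name GRCh38, DESeq2, limma and edgeR. Aligner and counter: not given in the sources used here. All 206601 transcripts match GENCODE 29, from which countable bases were derived. FPKM follow from the same counts.

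Counts were summed per gene, filtered with filterByExpr (minimum count 10, minimum total 15), scaled by TMM and compared with the two-sided quasi-likelihood F-test of edgeR 4.0.16 (R 4.3.3), adjusted by Benjamini-Hochberg over all 8055 genes tested (called at 0.05). The SE was derived from the log2 fold change and F. CPM use TMM library sizes (unscaled totals for the markers and the limit for 0 counts), and a fold is a ratio of mean CPM. Differences within pairs were tested with limma 3.58.1 (trend) on log2 CPM (prior count 2) over 808 opposite-strand pairs. The genes named are the 12 largest increases and decreases at a mean of at least 5 CPM, pairs with both genes called (up to 12 in each direction), the 5 most abundant antisense genes per countable base, and called list members (up to 6 each); exceptions are marked. Members and lists were chosen with earlier results of these data known. Most named genes were picked by their calls, so separate groups among them are no added evidence. Alternatives included DESeq2 1.42.0, voom, FPKM, other scalings and filters, a replicate block and leaving out each library. Sequences come from RefSeq (90 of 334 tested antisense symbols matched) and GENCODE 29. Intervals cover counting error only.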

Additional observations from a re-analysis of the deposited data

How the results depend on the processing

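Of 65 genes named by rule, none changed direction under any alternative that gave it a value (60 had one with protein-coding transcripts only). DESeq2 called 86 antisense genes (51 lower), 19 head-to-head and 8 embedded genes lower, and 19 pairs with both genes called (16 in the same, 3 in opposite directions). With coding genes counted on protein-coding transcripts only, 16 pairs were called in both genes, 10 of them in the same direction. Among pairs with overlapping exons 19 moved in the same direction. Scaling by library size alone gave 9 opposite pairs. Limma on log2(FPKM + 0.1) called 326 coding partners, 4 head-to-head genes higher and 22 pairs (19 same, 3 opposite), and with a pseudocount of 1 it gave 4 head-to-head genes higher and 3 opposite pairs. Without a filter 32 embedded genes were higher and 33 lower. Same-numbered libraries deviated apart (correlation -0.15, not tested), and whether the replicate numbers pair the libraries is not known. A block on the replicate numbers called 107 antisense genes, 461 partners, 26 pairs and 37 pair differences. The crossed pairing, added after seeing the data, called 131, 600, 34 and 53.

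Leaving out 1 library gave 61 to 123 antisense calls (27 to 48 higher, 34 to 78 lower), 4 to 8 head-to-head genes higher and 14 to 27 lower, 19 to 25 embedded genes higher and 6 to 19 lower, 311 to 570 partners, 11 to 29 pairs (9 to 25 same, 2 to 6 opposite) and 34 to 49 pair differences. A group left with 1 library is assumed to vary like the other. Of the 130 antisense calls, 57, 81, 97 and 100 were kept without ethanol 1, ethanol 2, methylparaben 1 and methylparaben 2. The 1877 antisense genes with counts that the filter left out were tested without it. There 169 of 2211 antisense genes were called, against 3196 of 22450 genes of any type. Of the 130 antisense calls reported with the filter, 116 were among the calls without it.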
